A study of Mus musculus with 2 samples.

Results

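A set of 9 genes that mark monocytes and macrophages was followed through 2 lung RNA-seq libraries of C57BL/6 mice, 1 from animals exposed to PM2.5 and 1 from control animals. The genes are Ly6c2, Plac8, Treml4, Csf1r, Adgre1, Ms4a7, Fcgr1, Fcgr4 and Cd14. They were chosen by symbol, each symbol matched 1 Ensembl identifier of the count tables through the GENCODE M21 annotation, and all 9 of the 9 were found among 37315 identifiers. C57BL/6 is an inbred laboratory strain, and PM2.5 is fine airborne particulate matter. Both groups are lung tissue without a stated transgene or deletion. The labels give no sex, age, dose, route or number of animals per library, and the 12 followed by W in both titles is not spelled out there. The PM2.5 library held 57435027 counts and the control library 62788045.

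Mouse blood holds classical monocytes, which carry much Ly6C and the chemokine receptor CCR2 and enter inflamed tissue, and patrolling monocytes, which carry little Ly6C and much CX3CR1 and stay along vessel walls. Both carry the growth factor receptor CSF1R. In the lung, macrophages live in the airspace and in the interstitium, and monocytes entering the tissue can become macrophages there.

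Ly6c2, Ms4a7 and Cd14 were higher in the PM2.5 library, by 1.83-fold, 1.87-fold and 1.52-fold. Csf1r, Adgre1, Plac8, Fcgr1 and Fcgr4 had ratios between 0.885 and 1.18, and Treml4 had the lowest ratio, 0.793. Levels are in CPM, the counts of a gene set to a common library size after scaling by the trimmed mean of M values (TMM), and ratios are PM2.5 over control. With 1 library per group there is no replicate check and no test of the conditions: each ratio carries an exact 95% interval for counting error only. To be called higher or lower, a gene needed a ratio of at least 1.5-fold and a counting interval without 1. By this rule 3 of the 9 genes were higher, against a background of 14.9% of the 14518 genes that averaged 1 CPM or more, and 0 of the 9 were lower, against 19.1%. With library totals 23.8% of all genes were higher and 9.90% lower, and with upper quartile factors 19.5% and 13.2%, while the members' counts stayed at 3 and 0. At 2-fold no member was counted, where 7.25% of all genes were higher and 6.04% lower. The median log2 ratio was 0.10 over the members and -0.09 over all 14518 genes, with quartiles of -0.48 and 0.33. In bulk lung tissue, fewer or more cells of a type and less or more RNA per cell cannot be told apart.

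**Figure D1:**
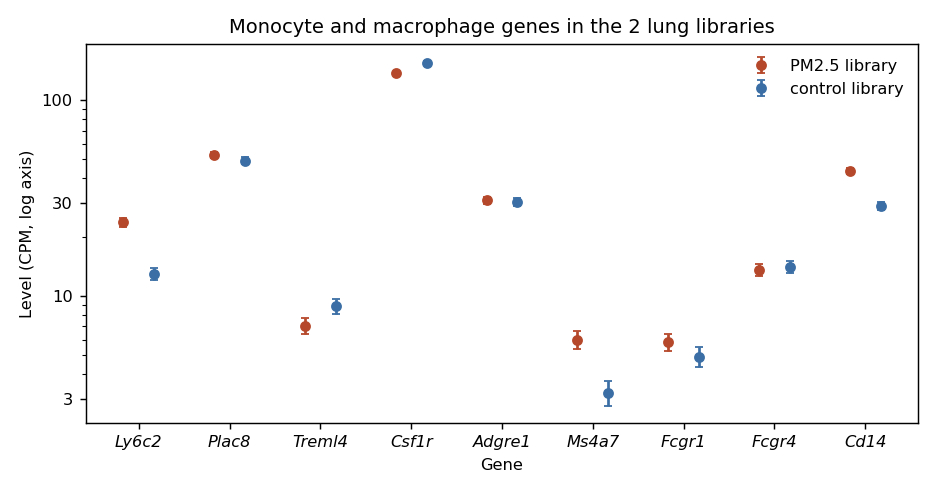
Level of each of the 9 genes in CPM on a log axis, in the PM2.5 library (left of each pair) and the control library, with exact 95% Poisson intervals for counting error. The points of Ly6c2, Ms4a7 and Cd14 lie higher in the PM2.5 library, while those of Adgre1, Fcgr4 and Plac8 nearly coincide.

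The promoters of 4 members show the sequence around their starts, for 2 genes that were higher in the PM2.5 library (Ly6c2 and Ms4a7) and 2 genes of patrolling monocytes that were not (Treml4 and Fcgr4). Capitals mark GAGGAA on either strand, the purine-rich core bound by PU.1, the factor that directs myeloid development, and in Fcgr4 also the repeat element bound by interferon regulatory factors. Each window runs from 250 bases before the annotated start to 50 after it, in RefSeq sequence of GRCm38.p6, read in the direction of the gene.
Ly6c2, chr15:75111922-75112221, minus strand: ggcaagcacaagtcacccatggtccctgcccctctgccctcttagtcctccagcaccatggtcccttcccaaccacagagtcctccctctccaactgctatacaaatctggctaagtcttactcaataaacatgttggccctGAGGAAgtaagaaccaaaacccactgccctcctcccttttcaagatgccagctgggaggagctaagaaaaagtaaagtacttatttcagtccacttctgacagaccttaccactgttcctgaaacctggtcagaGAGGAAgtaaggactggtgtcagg
Ms4a7, chr19:11336097-11336396, minus strand: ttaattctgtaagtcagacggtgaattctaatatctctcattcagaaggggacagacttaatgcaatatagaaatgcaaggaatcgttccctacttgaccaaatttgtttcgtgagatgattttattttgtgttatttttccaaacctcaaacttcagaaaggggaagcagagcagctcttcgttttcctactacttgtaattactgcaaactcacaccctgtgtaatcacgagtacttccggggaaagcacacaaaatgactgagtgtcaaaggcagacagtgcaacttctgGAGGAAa
Treml4, chr17:48264045-48264344, plus strand: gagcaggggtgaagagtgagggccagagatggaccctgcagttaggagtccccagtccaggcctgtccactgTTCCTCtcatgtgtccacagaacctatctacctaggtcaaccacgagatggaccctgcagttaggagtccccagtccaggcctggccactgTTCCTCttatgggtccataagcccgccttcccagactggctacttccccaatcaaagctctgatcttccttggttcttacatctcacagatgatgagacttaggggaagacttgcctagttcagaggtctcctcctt
Fcgr4, chr1:171018676-171018975, plus strand: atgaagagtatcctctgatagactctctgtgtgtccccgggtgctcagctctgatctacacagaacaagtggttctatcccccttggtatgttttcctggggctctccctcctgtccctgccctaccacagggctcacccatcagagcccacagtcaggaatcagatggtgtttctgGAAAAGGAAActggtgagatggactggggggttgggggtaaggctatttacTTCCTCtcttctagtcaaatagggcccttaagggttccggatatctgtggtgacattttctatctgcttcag

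The promoter table held windows for 6 of the 9 genes, 9 windows in all. GAGGAA was found in 7 of these windows and in at least 1 window of each of the 6 genes, whatever their ratio. Over the whole table it was in 28.3% of 32817 windows and in 31.2% of genes. In Ly6c2 it occurred 108 bases before the start on the plus strand of the gene and again 26 bases after it, and in Treml4 it occurred on the opposite strand at offsets of -178 and -87. The interferon regulatory factor element was found in Fcgr4 alone of the 6 genes, at an offset of -73, against 3.98% of genes. TTGCNNAA, the form searched for C/EBP factors, was found in Plac8 alone (12.2% of genes) and TTCNNNGAA, that for STAT factors, in Fcgr1 alone (9.55% of genes). None of these motifs overlapped another in the windows printed. A match is a run of letters, not a measured site.

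Of the classical monocyte genes, Ly6c2 was higher and Plac8 met neither size. Ly6c2 encodes a Ly6C antigen, a small protein anchored to the outer membrane (ENSMUSG00000022584, GRCm38 chromosome 15, 75108158 to 75111970, minus strand). It had 1481 counts or 23.8 CPM in the PM2.5 library, against 754 counts or 13.01 CPM in the control library. The ratio was 1.83 (95% counting interval 1.68 to 2.001), which lies above 91.3% of the log2 ratios of all measured genes. Plac8 encodes a small cysteine-rich protein of classical monocytes that granulocytes and lymphoid cells also make (ENSMUSG00000029322, chromosome 5, 100553725 to 100572245, minus strand). It had 3273 counts or 52.6 CPM in the PM2.5 library and 2850 counts or 49.2 CPM in the control library, a ratio of 1.07 (1.02 to 1.13). Ly6c2 counts per Plac8 count were 0.452 in the PM2.5 library and 0.265 in the control library, a ratio of ratios of 1.71 (1.54 to 1.90). That comparison does not depend on how the libraries are scaled.

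Ly6c2 has a close neighbour in Ly6c1, which capillary endothelium expresses at a high level, so the part in which the transcripts differ is shown. The coding sequences of the 2 genes, of 396 bases each, differ at 9 bases, an identity of 97.7%. The first 150 bases, printed from the GENCODE M21 transcripts with the differing bases in capitals, hold 6 of these differences.
Ly6c2, coding bases 1 to 150: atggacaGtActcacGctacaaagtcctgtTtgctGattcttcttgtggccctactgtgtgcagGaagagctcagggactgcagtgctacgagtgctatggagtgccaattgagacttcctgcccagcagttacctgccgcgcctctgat
Ly6c1, coding bases 1 to 150: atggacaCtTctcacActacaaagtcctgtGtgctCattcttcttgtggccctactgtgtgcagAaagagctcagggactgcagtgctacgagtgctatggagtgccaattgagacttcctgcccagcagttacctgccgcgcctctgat
Over all annotated Ly6c2 transcripts, 75 of 2737 windows of 125 bases, the length of 1 read, also occur in Ly6c1, or 2.74%. The longest identical run of the 2 coding sequences is 188 bases. The longest protein-coding Ly6c2 transcript has 822 bases, so the share over that transcript alone may be larger and was not computed. Ly6c1 had 17458 counts in the PM2.5 library and 10903 counts in the control library. Its ratio of 1.49 (1.46 to 1.53) is just short of the 1.5-fold size. Ly6c2 counts per Ly6c1 count were 0.0848 in the PM2.5 library and 0.0692 in the control library, a ratio of ratios of 1.23 (1.12 to 1.35). With the counts of both genes summed, as for reads that cannot be assigned, the ratio was 1.51 (1.48 to 1.55). Ly6c1 holds most of the summed counts, which were 18939 in the PM2.5 library and 11657 in the control library. The summed ratio thus mainly repeats that of Ly6c1 and sets no limit for Ly6c2. Windows were compared for exact identity, and how the counting treated reads that fit both genes was not tested.

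Neither patrolling monocyte gene met the 1.5-fold size, and the sign of Fcgr4 changes with library totals and with upper quartile factors. Treml4 encodes an immunoglobulin-type receptor of the TREM family that marks patrolling monocytes (ENSMUSG00000051682, chromosome 17, 48264295 to 48275360, plus strand). It had 438 counts or 7.04 CPM in the PM2.5 library, against 515 counts or 8.88 CPM in the control library. The ratio was 0.793 (0.696 to 0.902), short of the 1.5-fold size. Fcgr4 encodes an activating receptor for IgG on patrolling monocytes, macrophages and neutrophils (ENSMUSG00000059089, chromosome 1, 171018920 to 171029761, plus strand). It had 848 counts or 13.6 CPM in the PM2.5 library and 814 counts or 14.04 CPM in the control library, a ratio of 0.971 (0.881 to 1.07) whose interval includes 1. Ly6c2 counts per Treml4 count, a classical over a patrolling marker, were 3.38 in the PM2.5 library and 1.46 in the control library. This ratio of ratios was 2.31 (1.97 to 2.70), and that of Ly6c2 to Fcgr4 was 1.89 (1.65 to 2.15). For Plac8, the other classical member, the ratios of ratios were smaller. They were 1.35 (1.17 to 1.55) to Treml4 and 1.10 (0.99 to 1.23) to Fcgr4, the latter with an interval that includes 1.

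Of the lineage and macrophage genes, Ms4a7 was higher and Csf1r, Adgre1 and Fcgr1 met neither size; the sign of Csf1r changes with library totals. Csf1r, the receptor for CSF1 and IL-34 on which most monocytes and macrophages depend (ENSMUSG00000024621, chromosome 18, 61100598 to 61132149, plus strand), held the most counts of the 9 genes. It had 8522 counts or 137 CPM in the PM2.5 library and 8975 counts or 155 CPM in the control library, a ratio of 0.885 (0.859 to 0.912). Csf1r made 42.8% of the summed CPM of the members in the PM2.5 library and 50.4% in the control library. It overlaps Hmgxb3, a gene on the opposite strand, over 873 exon bases, and 749 of its 5671 windows of 125 bases also occur there. Hmgxb3 had 1407 counts in the PM2.5 library and 2215 in the control library, a ratio of 0.592 (0.553 to 0.633). The strand setting of the counting is not given in the sources used here, so how reads of the shared part were assigned is not known.

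Adgre1 encodes F4/80, an adhesion receptor of mouse macrophages (ENSMUSG00000004730, chromosome 17, 57358691 to 57483527, plus strand). It had 1917 counts or 30.8 CPM in the PM2.5 library and 1761 counts or 30.4 CPM in the control library, a ratio of 1.01 (0.951 to 1.08). Ms4a7, a membrane-spanning protein gene of tissue macrophages other than those of the airspace (ENSMUSG00000024672, chromosome 19, 11321039 to 11336146, minus strand), was counted as higher. It had 373 counts or 6.00 CPM in the PM2.5 library, against 186 counts or 3.21 CPM in the control library, a ratio of 1.87 (1.56 to 2.24). Fcgr1 encodes CD64, the high-affinity IgG receptor of monocytes and macrophages (ENSMUSG00000015947, chromosome 3, 96282909 to 96293969, minus strand). It had 361 counts or 5.80 CPM in the PM2.5 library and 284 counts or 4.90 CPM in the control library. Its ratio of 1.18 (1.01 to 1.39) was short of the 1.5-fold size. There were 5.14 Adgre1 counts per Ms4a7 count in the PM2.5 library and 9.47 in the control library, a ratio of ratios of 0.543 (0.448 to 0.657).

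Cd14, the co-receptor that hands bacterial endotoxin to the receptor TLR4 (ENSMUSG00000051439, chromosome 18, 36725067 to 36726798, minus strand), was counted as higher, close to the limit of the rule. It had 2715 counts or 43.6 CPM in the PM2.5 library and 1670 counts or 28.8 CPM in the control library. The ratio was 1.52 (1.43 to 1.61), so the interval reaches below 1.5. With the trend of the ratio with transcript length removed, the log2 ratio was 0.34 and the gene was no longer counted as higher.

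**Figure D2:**
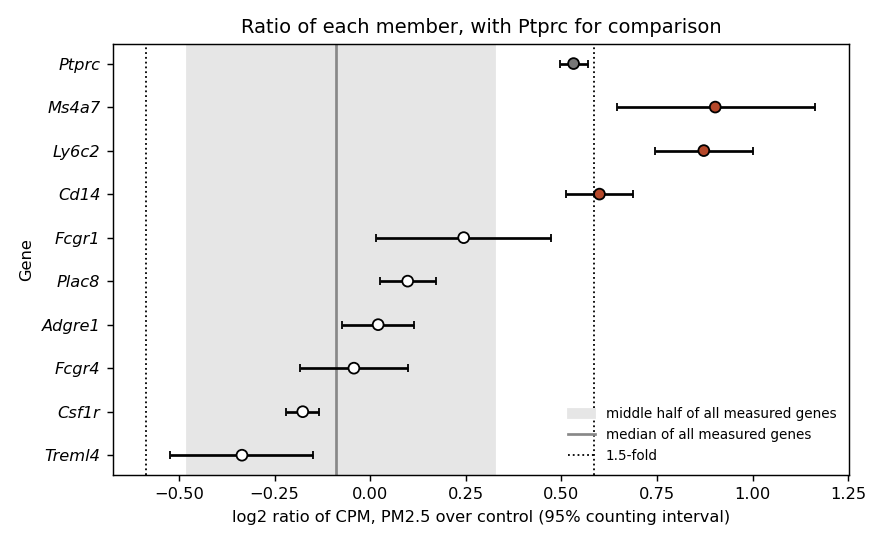
The log2 ratio of CPM, PM2.5 over control, of the 9 genes and of Ptprc, with 95% counting intervals. Filled red points are counted as higher, the grey band runs between the quartiles of all measured genes (-0.48 to 0.33), and only Ms4a7, Ly6c2 and Cd14 of the 9 lie to its right.

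The order of the ratios was Ms4a7, Ly6c2, Cd14, Fcgr1, Plac8, Adgre1, Fcgr4, Csf1r and Treml4. Intervals of neighbours in this order overlapped except between Ly6c2 and Cd14 and between Cd14 and Fcgr1. Of the 36 pairs of members, 28 had a ratio of ratios whose counting interval excluded 1 and 8 did not. The 8 were Ms4a7 with Ly6c2, Fcgr1 with Plac8 and with Adgre1, Plac8 with Adgre1 and with Fcgr4, Adgre1 with Fcgr4, and Csf1r with Fcgr4 and with Treml4. Ly6c2 over Ms4a7 gave a ratio of ratios of 0.979 (0.800 to 1.20), while Ms4a7 over Treml4 gave the highest of the 36, 2.36 (1.89 to 2.95). The share of pairs whose interval excludes 1 was not computed over all measured genes. The count of 28 of 36 is thus not shown to be particular to the members.

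**Figure D3:**
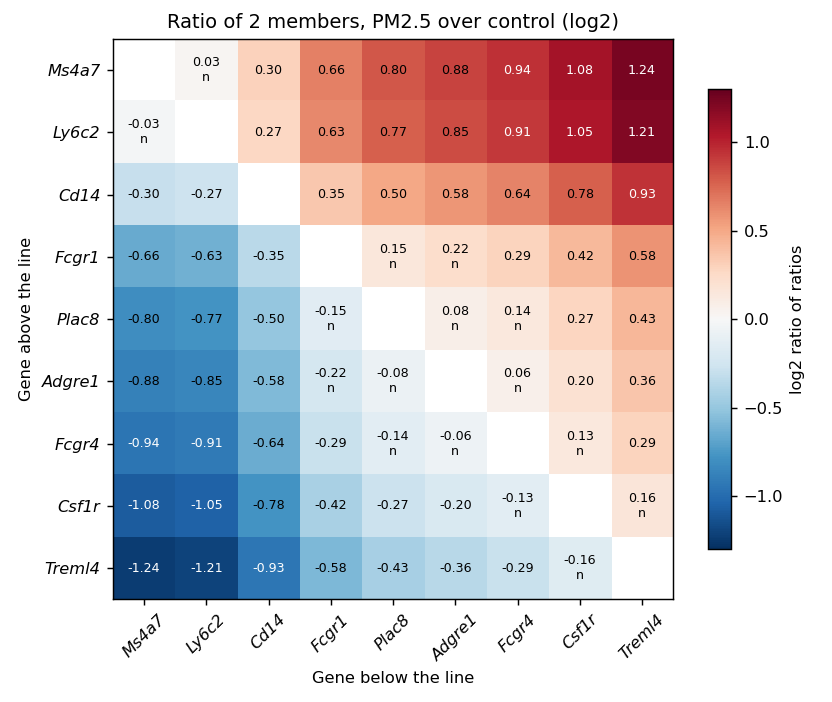
Log2 of the ratio between 2 members (row over column) in the PM2.5 library over the same ratio in the control library. Cells marked n have a counting interval that includes no difference. Ms4a7 over Treml4, a ratio of ratios of 2.36, is the highest, and each cell below the diagonal is the inverse of the one above it.

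Set against Ptprc, the gene for CD45 that all leukocytes carry, the members divided into genes above and below it. Ptprc had 15284 counts in the PM2.5 library and 9853 in the control library, a ratio of 1.45 (1.41 to 1.48). That lies above 83.7% of the log2 ratios of all measured genes, so most genes were lower relative to Ptprc. Relative to Ptprc, Ly6c2 and Ms4a7 were higher in the PM2.5 library, by ratios of 1.27 (1.15 to 1.39) and 1.29 (1.08 to 1.55). Cd14 had a ratio of 1.05 to it (0.981 to 1.12), with an interval that includes 1. The other 6 genes were lower relative to Ptprc, with Treml4 at 0.548 (0.480 to 0.626), Csf1r at 0.612 (0.589 to 0.637), Fcgr4 at 0.672, Adgre1 at 0.702, Plac8 at 0.740 and Fcgr1 at 0.819 (0.698 to 0.963).

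Per length, Plac8 was the highest member in both libraries and Ms4a7 the lowest. In CPM per kilobase of merged exons, the PM2.5 library gave Plac8 33.1, Cd14 25.2, Csf1r 23.7, Fcgr4 10.9, Adgre1 9.52, Ly6c2 8.69, Treml4 3.53, Fcgr1 2.24 and Ms4a7 1.35. The control library gave Plac8 30.9, Csf1r 26.8, Cd14 16.6, Fcgr4 11.2, Adgre1 9.38, Ly6c2 4.75, Treml4 4.45, Fcgr1 1.89 and Ms4a7 0.720 CPM per kilobase. Cd14 thus stood above Csf1r in the PM2.5 library and below it in the control library. Neighbours whose counting intervals overlapped were Adgre1 and Ly6c2 in the PM2.5 library and Ly6c2 and Treml4 in the control library. The place of Ly6c2 depends on the length used: over its longest protein-coding transcript of 822 bases it had 29.0 CPM per kilobase in the PM2.5 library and 15.8 in the control library, and ranked 3 and 4 among the 9 in place of 6 and 6. With such lengths Fcgr1, not Ms4a7, was lowest, and Csf1r stood above Cd14 in both libraries. This alternative was chosen after seeing the data.

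Markers of classical monocytes beyond the members were higher or met neither size, and those of patrolling monocytes varied widely. Over all measured genes 14.9% were higher and 19.1% lower, the shares to set beside the counts of each list here and below. Of the 6 other classical genes, 3 were higher and none lower (median log2 ratio 0.60). Ccr2, the receptor that draws classical monocytes into tissue, had 4267 counts in the PM2.5 library and 2495 in the control library, a ratio of 1.59 (1.52 to 1.68). Ms4a4c had a ratio of 1.90, while F13a1 at 1.44, Hp at 1.18 and Vcan at 0.932 met neither size. Hp is also expressed by neutrophils and epithelium. Of the 11 other patrolling genes, 1 was higher, 3 were lower and 7 met neither size (median log2 ratio -0.08). This balance depends on the scaling: over all 13 patrolling genes 1 was higher and 3 lower, but 3 were higher and 1 lower with library totals, and 2 and 2 with upper quartile factors. Cx3cr1 had 912 counts in the PM2.5 library and 1415 in the control library, a ratio of 0.601 (0.552 to 0.653), and Cd300e had a ratio of 0.652. Ace, at 0.377, is largely a gene of lung capillaries. Nr4a1, the nuclear receptor required for patrolling monocytes, had a ratio of 1.09, Spn (CD43) 0.737 and Adgre4 0.921, and Pou2f2 was higher at 1.52. None of the 8 classical and 13 patrolling genes was at 0 in either library.

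Macrophage lists held genes in both directions. Of the 12 interstitial macrophage genes other than Ms4a7, 4 were higher and 3 lower (median log2 ratio -0.07, or -0.03 with Ms4a7). Those higher were Folr2 at 2.13, Pf4 (also a platelet gene) at 1.90, and the complement genes C1qb and C1qc at 1.61 each, beside C1qa at 1.45, while the hyaluronan receptor Lyve1, which lymphatic vessels share, was lower at 0.469 and Stab1 at 0.659. Of 13 alveolar macrophage genes, 2 were higher and 1 lower (median log2 ratio -0.15), against 14.9% and 19.1% of all measured genes. The scavenger receptor Marco had a ratio of 3.57 on 544 counts in the PM2.5 library and 142 in the control library, the lipid regulator Pparg was higher at 1.65, and the mannose receptor Mrc1 was lower at 0.616. Of 12 pan-myeloid genes other than the members, 6 were higher and 1 lower (median log2 ratio 0.39). Lst1 at 2.36, the signalling adaptor Tyrobp at 2.02, the integrin Itgam (CD11b) at 1.60 and Fcer1g at 1.73 were higher, the efferocytosis receptor Mertk was lower at 0.645, and the myeloid factor Spi1 (PU.1) met neither size at 1.14. The medians of the whole patrolling, interstitial and alveolar lists change sign with the scaling: with library totals they were 0.15, 0.20 and 0.08.

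**Figure D4:**
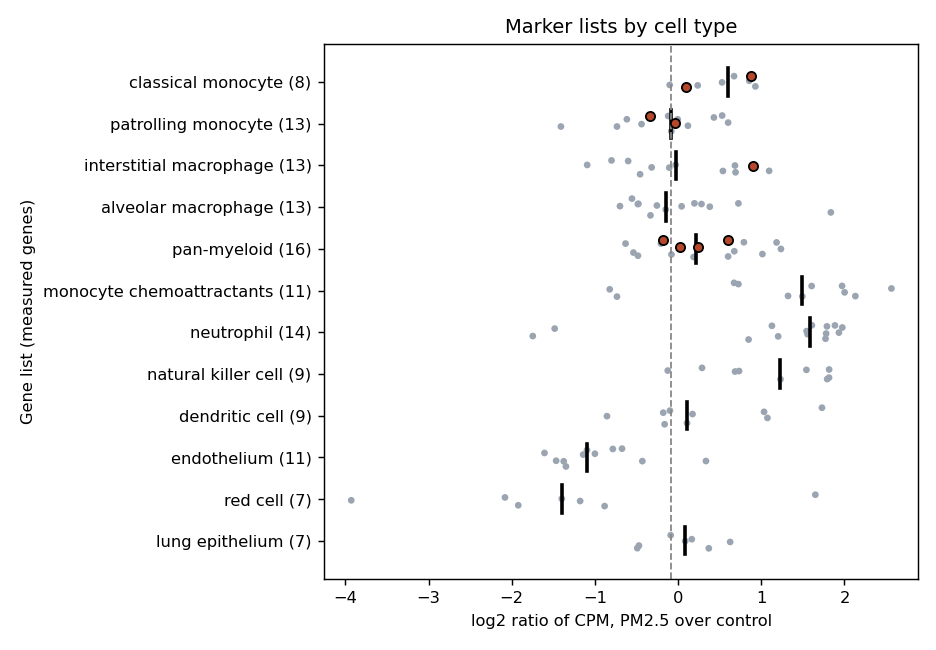
Log2 ratio of CPM, PM2.5 over control, of each measured gene in 12 marker lists, with the members in red, list medians as black bars and the median of all measured genes as a dashed line. The neutrophil median is at 1.58, the classical monocyte median at 0.60 and the endothelial median at -1.10. Height within a row carries no value. The patrolling, interstitial and alveolar medians change sign with library totals.

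Markers of other leukocytes and of vessels differed between the libraries too, and some of these cells express members. In the neutrophil list 12 of 14 genes were higher and 2 lower, with summed levels of 1787 CPM in the PM2.5 library and 570 CPM in the control library. S100a8 had a ratio of 3.46, Ly6g 3.69 and Csf3r 3.93, whereas the granule protein genes Ngp and Camp had ratios of 0.298 and 0.357. Other granule protein genes of the list, Ltf and Mmp8, were higher at 3.42 and 2.19. Ly6g was at 0.483 CPM in the control library and averaged 1 CPM only through its PM2.5 level. Neutrophils also express Cd14, Fcgr4 and Plac8. In the natural killer cell list 7 of 9 genes were higher and no gene was lower, at sums of 117 CPM in the PM2.5 library and 52.5 CPM in the control library, and Klrd1, Gzmb and Ncr1 had ratios of 3.52, 3.46 and 2.35. Dendritic cell genes had 3 higher and 1 lower of 9, among them Mgl2 and Cd209a, which monocyte-derived cells share, at 3.32 and 2.05, and Clec9a at 0.553. Endothelial genes had 9 of 11 lower and none higher, with sums of 3795 CPM in the PM2.5 library and 8275 CPM in the control library, and Cdh5 and Ptprb had ratios of 0.328 and 0.362. Red cell genes had 6 of 7 lower, with sums of 2701 CPM in the PM2.5 library and 5816 CPM in the control library, and Slc4a1 and Hbb-bs had ratios of 0.0656 and 0.542. The 1 red cell gene that was higher, Hba-a2 at 3.14, is a close copy of Hba-a1 at 0.264, so their separate values are uncertain. Lung epithelial markers, with sums of 57244 CPM in the PM2.5 library and 44181 CPM in the control library, had 1 higher of 7, the club cell gene Scgb1a1 at 1.54. No matched marker in these 6 lists was at 0 in either library, and Ahsp of the red cell list matched no identifier. The part of these cells in the values of the members was not tested.

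The ligands of the members' pathways and the members' gene families were compared by lists. In the CSF1 receptor list, 6 of the 13 genes other than Csf1r were lower and none higher (median log2 ratio -0.44). The ligand Csf1 met neither size at 0.851, with 3050 counts in the PM2.5 library and 3341 in the control library, and the second ligand, Il34, was lower at 0.577 (0.524 to 0.635). The signalling genes Pik3r1 at 0.561 and Grb2 at 0.609 were lower as well, Irf8 and Cebpa had ratios of 0.969 and 0.904, and with library totals 1 gene of this list was counted as lower. The values of this list are of whole lung tissue, and which cells they come from was not tested. Of the genes for chemokines and receptors that draw monocytes, 9 of 11 were higher and 2 lower. Of these, Ccl2, Ccl3, Ccl4, Ccl7 and Ccl12 were below 1 CPM in the control library. They averaged 1 CPM or more only through their PM2.5 level, so their place among the higher genes is not independent of the filter. Ccl7 had 146 counts in the PM2.5 library and 23 in the control library, a ratio of 5.92 (3.79 to 9.63). Ccl8 had a ratio of 4.38, while Cx3cl1, the ligand of CX3CR1, was lower at 0.565 (0.534 to 0.598).

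Fcgr1 and Fcgr4 had lower ratios than Fcgr2b and Fcgr3, while Fcgrt, the receptor that transports and recycles IgG, had a lower ratio than both, 0.785 (0.759 to 0.811). Of the 13 other measured genes in the Fc receptor list, 7 were higher and none lower (median log2 ratio 0.59). The inhibitory receptor Fcgr2b had 2274 counts in the PM2.5 library and 1230 in the control library, a ratio of 1.72 (1.61 to 1.85). The activating receptor Fcgr3 had 3799 counts in the PM2.5 library and 2239 in the control library, a ratio of 1.58 (1.501 to 1.67). Fcer1g encodes the chain with which Fcgr1, Fcgr3 and Fcgr4 products signal, and had a ratio of 1.73 (1.65 to 1.82). Fcgr4 counts per Fcgr3 count were 0.223 in the PM2.5 library and 0.364 in the control library, a ratio of ratios of 0.614 (0.550 to 0.686). Fcgr1 counts per Fcer1g count gave a ratio of ratios of 0.685 (0.580 to 0.809). Several higher genes of this list belong to B cells or epithelium, such as Fcrl1 at 1.90, Pigr at 1.83 and Fcamr, a receptor for IgA and IgM, at 4.42. Fcamr was at 0.673 CPM in the control library and averaged 1 CPM only through its PM2.5 level.

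Cd14 was higher while Tlr4 was not. Tlr4 had 1363 counts in the PM2.5 library and 1377 in the control library, a ratio of 0.923 (0.855 to 0.995), and Cd14 counts per Tlr4 count were 1.99 in the PM2.5 library and 1.21 in the control library, a ratio of ratios of 1.64 (1.49 to 1.81). Ly96 (MD-2), the TLR4 partner that binds endotoxin, was higher at 1.87 (1.49 to 2.36), and Lbp, which carries endotoxin to CD14, met neither size at 0.728. Of the 16 other genes in the list for CD14 and endotoxin sensing, 4 were higher and none lower (median log2 ratio 0.10). The list also holds Toll-like receptors other than TLR4. Besides Ly96, the higher genes were Ly86 at 1.88 and the Toll-like receptor genes Tlr1 at 2.64 and Tlr6 at 1.59.

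In the families, Ms4a7 lay near the top of a family without a lower gene, and Treml4 apart from most of its own. Of the 8 other measured MS4A genes, 4 were higher and none lower (median log2 ratio 0.59), from Ms4a4d at 1.17 to Ms4a6b at 1.80 and Ms4a4c at 1.90. Of the 7 other genes in the TREM family list, which holds the adaptors Tyrobp and Hcst, 5 were higher, among them Trem1 at 2.30, Trem3 at 2.85 and Trem2 at 1.67, 1 was lower, the platelet gene Treml1 at 0.407, and Treml2 met neither size at 1.01. Of the 10 other measured Ly6 genes, 4 were higher and none lower (median log2 ratio 0.55), including Lypd2 at 2.51, Ly6g, and Ly6a at 1.56. Neither of the 2 receptors related to F4/80 was counted in either direction: Adgre5 (CD97) had a ratio of 0.771 and Adgre4 is given above. With Adgre1 included, the median log2 ratio of these 3 genes was -0.12, or 0.11 with library totals, and without Adgre1 it was -0.25.

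**Figure D5:**
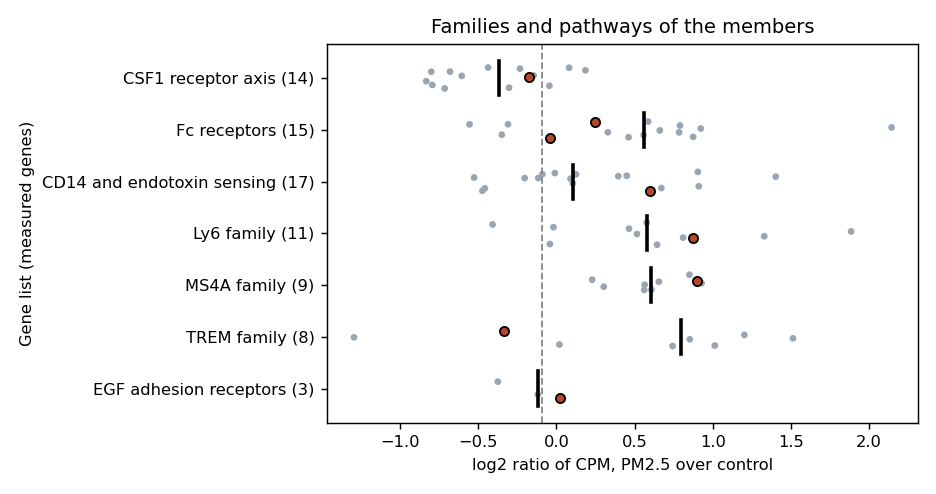
Log2 ratio of CPM, PM2.5 over control, of each measured gene in 7 families and pathways that include a member, with members in red, list medians as black bars and the median of all measured genes as a dashed line. Treml4 at -0.34 lies below the TREM median of 0.80, and Ms4a7 at 0.90 lies above the MS4A median of 0.61. The EGF adhesion median changes sign with library totals.

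Among the genes of all lists, the one nearest in log2 ratio over the 2 libraries was Ly96 for Ms4a7, Pigr for Ly6c2 and Lyz2, the lysozyme of myeloid cells, for Cd14. It was Ccr7 for Csf1r and Krt79 for Treml4. Each of these differed from its member by at most 0.0028 on the log2 scale.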

How the data were processed

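Messenger RNA of mouse lung was sequenced in 1 PM2.5 and 1 control library, with stranded KAPA libraries read in pairs of 125 bases, per the labels' protocols. The deposited files hold raw counts per Ensembl gene identifier. Per the submitters' processing notes, the tools included TopHat2 2.1.1 and HTSeq 0.6.0, with build mm10; annotation release and strand setting: not given in the sources used here. Symbols, lengths and coordinates came from GENCODE M21 (GRCm38), which named 35533 of 37315 identifiers. Unnamed identifiers took 0.256% of the PM2.5 and 0.199% of the control counts, and 1 blank line of the PM2.5 file carries none.

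Library sizes were scaled over all genes with edgeR 4.0.16 (TMM factors 1.08 for PM2.5 and 0.923 for control). The interval of a ratio came from the Clopper-Pearson interval of the share of a gene's counts in the PM2.5 library, and that of a ratio between 2 genes is the exact conditional interval of the odds ratio (scipy 1.17.1). Reads are not independent molecules, so intervals cover counting error only. A mean of at least 1 CPM made a gene measured, and all 9 members passed. No p-value was computed. Calls and intervals were tested on counts simulated with counting error only, so that test does not speak to variation between animals.

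All members are named. Of each of the 20 lists, the 2 leading genes in each direction by the interval bound nearest to 1 and a fixed set of well-known genes are named; others, such as Hmgxb3, C1qb, Cd300e, Stab1, Fcrl1, Fcgrt, Ltf and Ms4a4d, were chosen after their values were seen. Values of a few list genes are left out of the text. Members and lists were chosen with earlier results of these data known. Other scalings (DESeq2 1.42.0 size factors among them), filters, sizes, a thinned control library and removal of the length trend (lowess, statsmodels 0.14.6) were tried.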

Additional observations from a re-analysis of the deposited data

How the results depend on the processing

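The count of 3 higher members was 0 with a size of 2-fold, where 7.25% of all genes were higher. It was 2 of the 6 members with a mean of at least 10 CPM (8.31% of all genes), 2 of 9 with the interval bound beyond 1.5-fold (10.2%) and 2 of 9 with the length trend removed (14.2%). It was 3 under the other alternatives. The count of lower members was 0 under each. The median log2 ratio of the members was 0.10 and became 0.33 with library totals, 0.24 with upper quartile factors and -0.015 with the length trend removed. Library totals and upper quartile factors shift the median of all genes by 0.23 and 0.14, so ratios near 1 carry no firm direction. Over 6 alternatives of scaling, depth and length, 5 members kept their sign, Ly6c2 (log2 ratio 0.78 to 1.10), Ms4a7 (0.89 to 1.13), Cd14 (0.34 to 0.83), Fcgr1 (0.14 to 0.47) and Treml4 (-0.54 to -0.11). The signs of Plac8, Csf1r, Adgre1 and Fcgr4 changed under at least 1 of them. The call of 8 members was kept, and that of Cd14 was lost with the length trend removed. With library totals 23.8% of all genes were higher and 9.90% lower. No paired analysis was possible because each group has 1 library. Depth limits Ms4a7, Fcgr1 and Treml4 most, with 186 to 515 counts per library. The variation between animals was not measured, so no alternative here speaks to it.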
